A study of Solanum lycopersicum with 18 samples.

Results

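AN1 (Solyc09g065100), AN11 (Solyc03g097340) and MYB-ATV (Solyc07g052490) are 3 of the tomato plant's own anthocyanin regulators. They were chosen by identifier, and all 3 were found among the 5295 features of the authors' table of fold changes. Tomato (Solanum lycopersicum) carried a construct from which dexamethasone (DEX, a synthetic glucocorticoid) switched on 2 snapdragon transgenes, the MYB factor Rosea1 and the bHLH factor Delila. The groups were roots 24 h and 3 h after 10 mg/L DEX, callus (undifferentiated tissue in culture) 24 h and 3 h after 10 mg/L DEX, and then uninduced roots and uninduced callus, with 3 libraries in each of the 6 groups. The uninduced groups are described only as not induced, so they are read as carrying the same construct, and no group is labelled as given DEX without it. Effects of DEX itself and of the transgenes can therefore not be told apart. The uninduced groups also carry no time label, and both times of a tissue are set against the same uninduced group. Time after DEX and time of sampling can therefore not be told apart either. The labels name neither the cultivar, nor the promoter, nor whether the plants came from 1 transformed line.

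Anthocyanin genes are switched on by a complex of a MYB factor, a bHLH factor and a WD-repeat protein. AN1 is the bHLH partner that directly acts on the pigment genes, and AN11, named after its petunia counterpart, is the WD-repeat scaffold that is often present before pigment is made. MYB-ATV is a small MYB protein, encoded at the tomato atroviolacea locus, that binds the bHLH partner without activating transcription and so restrains the complex. Delila belongs to the same branch of bHLH factors as petunia JAF13, a branch that in petunia acts upstream of AN1.

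The table gives 1 fold for each gene in each of 4 comparisons, read here as DEX over uninduced tissue. No library's own value was analysed here. The spread between replicates, the depth and the level behind a fold are therefore unknown, and none of the differences below has a test over samples. Higher and lower mean a fold of at least 2. The authors had kept only features that passed a false discovery rate of 0.05 and a 2-fold change in at least 1 comparison, so every share of all features given below is a share of an already selected set. The tissue labels could not be set against marker levels, because folds hold no levels. In bulk tissue, a change in the number of cells that express a gene and a change in RNA per cell cannot be told apart. Both transgenes stood above the uninduced tissue in all 4 comparisons. In the authors' deposited table Delila was at 224-fold in roots at 24 h, against 450.1-fold at 3 h, and at 39.2-fold in callus at 24 h, against 69.3-fold at 3 h. Rosea, in the authors' deposited table, was at 98.5-fold in roots at 24 h, against 294-fold at 3 h, and at 62.1-fold in callus at 24 h, against 235-fold at 3 h. Both transgenes thus had lower folds at 24 h than at 3 h in both tissues.

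All 3 endogenous regulators were higher after DEX in all 4 comparisons, but their folds differed by orders of magnitude. Among all features the share that was higher was 11.7% in roots at 24 h, 31.3% in roots at 3 h, 18.0% in callus at 24 h and 27.8% in callus at 3 h, and 221 of the 5295, or 4.17%, were higher in all 4. AN1 had the highest folds of the 3 in roots at 24 h and in callus at both times. MYB-ATV had the highest in roots at 3 h, and AN11 the lowest everywhere.

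AN1 was listed in the authors' deposited table at 2559-fold in roots at 24 h, against 224-fold in roots at 3 h. For callus the authors' deposited table gave 1328-fold at 24 h, against 68.9-fold at 3 h. The gene held rank 9 from the top of all features in roots at 24 h and again in callus at 24 h, against rank 17 in roots at 3 h and rank 23 in callus at 3 h. On the log2 scale the folds were 11.32 and 7.81 in roots at 24 h and 3 h, and 10.37 and 6.11 in callus at 24 h and 3 h. The uninduced level of AN1 may lie close to 0, which the table does not show, and folds of this size rest on that level.

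The authors' deposited table listed AN11 at 2.94-fold in roots at 24 h, against 4.14-fold in roots at 3 h. In the authors' deposited table its callus folds were 2.87 at 24 h, against 4.35 at 3 h. AN11 ranked 329 of 5295 in roots at 24 h, 565 in roots at 3 h, 529 in callus at 24 h and 501 in callus at 3 h. Its highest and lowest folds differed by 1.52 times, against 37.1 times for AN1 and 15.2 times for MYB-ATV. The scaffold gene was thus listed at nearly the same fold in both tissues, with its 24 h values below its 3 h values in each.

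MYB-ATV was listed in the authors' deposited table at 146-fold in roots at 24 h, against 341-fold in roots at 3 h. The callus folds of the repressor gene in the authors' deposited table were 84.7 at 24 h, against 22.5 at 3 h. It ranked 24 of 5295 in roots at 24 h, 12 in roots at 3 h, 23 in callus at 24 h and 52 in callus at 3 h. Its order of times was reversed between the tissues, with the 24 h value lower than the 3 h value in roots and higher in callus.

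**Figure D1:**
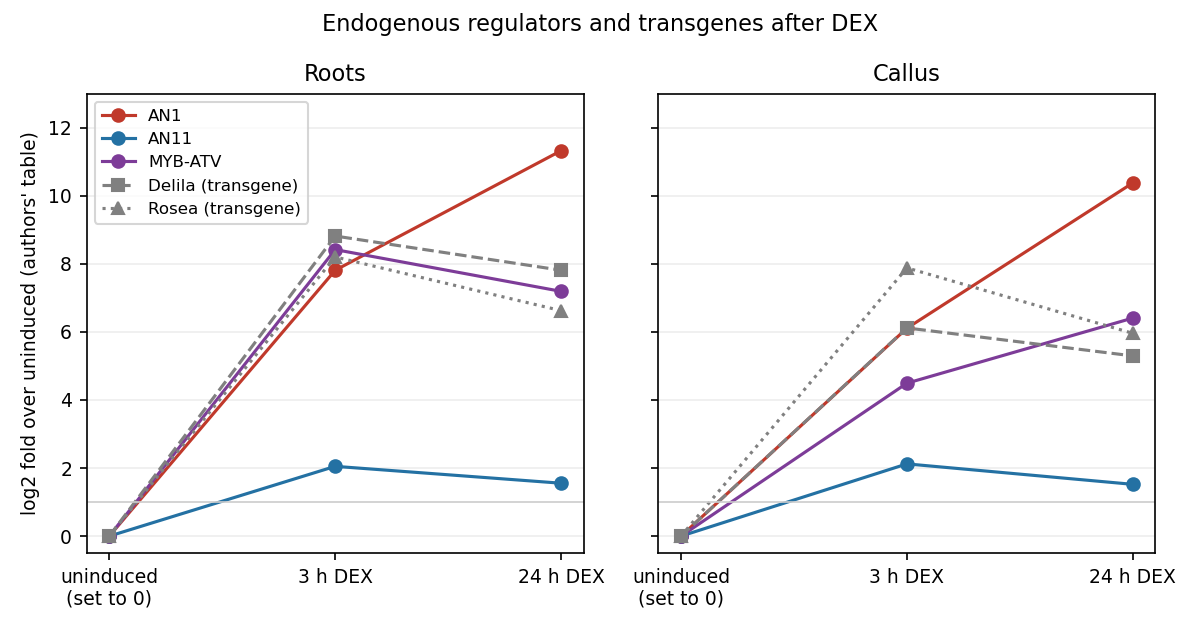
Log2 fold over uninduced tissue (vertical axis) of AN1, AN11, MYB-ATV and the transgenes Delila and Rosea at 3 h and 24 h of DEX, in roots and in callus; the uninduced point is 0 by definition, each other point is 1 deposited fold, and the horizontal line marks a 2-fold difference. AN1 is higher at 24 h than at 3 h in both panels (11.32 in roots and 10.37 in callus at 24 h), both transgenes are lower, and MYB-ATV is lower at 24 h in roots and higher in callus.

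The course between the induced times was compared by dividing the 24 h fold by the 3 h fold of the same tissue, which cancels the uninduced libraries that both folds share. This ratio was 11.4 in roots and 19.3 in callus for AN1. The AN1 ratio ranked 130 from the top of all 5295 features in roots and 38 in callus, and a ratio of at least 2 in roots was held by 26.0% of all features. AN11 had ratios of 0.709 in roots and 0.659 in callus. MYB-ATV had 0.427 in roots, where 23.0% of all features were at 0.5 or less, and 3.77 in callus, where it ranked 388 from the top. For comparison, the ratio was 0.498 in roots and 0.566 in callus for Delila, and 0.335 in roots and 0.264 in callus for Rosea. The AN1 fold was therefore higher at 24 h than at 3 h in both tissues, while the folds of AN11 and of both transgenes were lower at 24 h than at 3 h.

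The opposite course of MYB-ATV in the 2 tissues was uncommon in the table. Callus ratios of at least 2 together with root ratios of 0.5 or less were found in 112 of the 5295 features, or 2.12%, and the reverse pattern in 124, or 2.34%. Among the 221 features higher in all 4 comparisons, 5 had the course of MYB-ATV, which is 2.26%. These 5 were singled out after their values were seen. They were MYB-ATV itself, the MYB gene THM27 (Solyc10g055410), the WD-40 repeat gene Solyc01g109120, the F-box gene Solyc08g005330 and a gene for a protein of unknown function (Solyc07g018430). In the authors' deposited table THM27 stood at 2.13-fold in roots at 24 h, against 6.85-fold at 3 h, and at 83.2-fold in callus at 24 h, against 29.1-fold at 3 h. Its callus folds were thus close to those of MYB-ATV, while its root folds were far lower. Solyc01g109120, in the authors' deposited table, was at 7.21-fold in roots at 24 h, against 18.3-fold at 3 h, and at 27.8-fold in callus at 24 h, against 11.97-fold at 3 h.

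**Figure D2:**
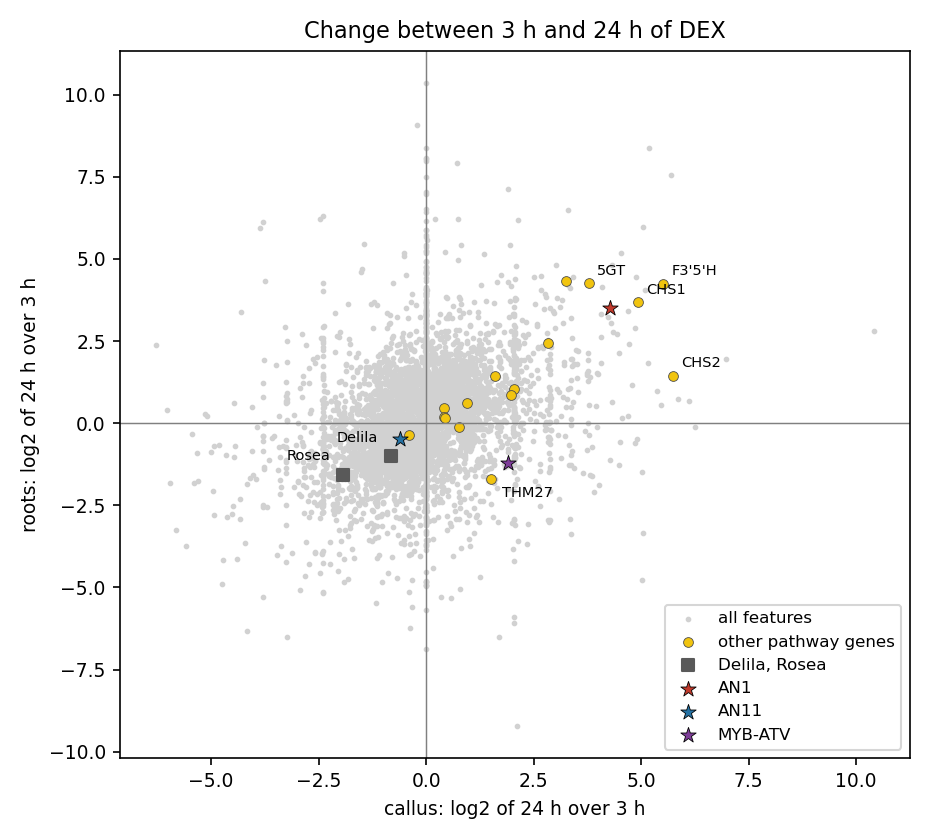
Log2 of the 24 h fold over the 3 h fold in roots (vertical axis) and in callus (horizontal axis) for all 5295 features (grey), the 3 regulators (stars), the other listed pathway genes (yellow) and the transgenes (squares). AN1 lies in the upper right, at 3.51 in roots and 4.27 in callus. Listed genes there include the flavonoid hydroxylase gene F3'5'H, the chalcone synthase gene CHS1, the glucosyltransferase gene 5GT and the O-methyltransferase gene AOMT. AN11 lies in the lower left, at -0.50 in roots and -0.60 in callus. Both transgenes and the glucosyltransferase gene 3GT (-0.36 in roots and -0.39 in callus) lie there too. MYB-ATV lies with THM27 in the lower right (MYB-ATV at -1.23 in roots and 1.91 in callus).

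The tissues were compared by dividing the root fold by the callus fold at the same time. For MYB-ATV this ratio was 1.72 at 24 h and 15.2 at 3 h, so that most of its difference between tissues lay at 3 h. Ratios of at least 2 were held by 12.5% of all features at 24 h and 19.1% at 3 h, and the MYB-ATV ratio at 3 h ranked 97 from the top. For AN1 the ratio was 1.93 at 24 h and 3.25 at 3 h. AN11 had ratios of 1.02 at 24 h and 0.951 at 3 h. The AN11 ratio at 3 h turned to the other side of 1 when each column was centred on its median, with a log2 ratio of 0.51 in place of -0.07, so no order of the tissues is given for this gene. The ratios of AN1 and MYB-ATV stayed above 1 with centring.

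The repressor was also set against its bHLH partner within each comparison. The MYB-ATV fold was 0.0570 times the AN1 fold in roots at 24 h and 1.52 times in roots at 3 h. In callus it was 0.0638 times the AN1 fold at 24 h and 0.327 times at 3 h. At 24 h the ratio was close in both tissues, and the MYB-ATV fold was above the AN1 fold in roots at 3 h alone of the 4 comparisons. These are ratios of folds and not of transcript levels, since each gene's fold is relative to its own uninduced level.

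Each regulator was then placed in its own family, taken from words in the table's gene descriptions. Of 46 bHLH features, AN1 had the highest fold in every comparison. The next bHLH feature was Solyc03g044460 in roots at 24 h (4.87-fold) and in callus at 24 h (22.9-fold) in the authors' deposited table. The next was Solyc12g036470 in roots at 3 h (9.70-fold) and Solyc02g091440 in callus at 3 h (4.77-fold) in the authors' deposited table, both named after their values were seen. The AN1 fold was thus between 14.5 and 525 times that of the next bHLH feature. Without AN1, 6 of the other 45 bHLH features were higher and 11 lower in roots at 24 h, 12 higher and 18 lower in roots at 3 h, 7 higher and 16 lower at 24 h of callus, and 3 higher and 13 lower at 3 h of callus. The share of all features that was higher was 11.7% in roots at 24 h, 31.3% in roots at 3 h, 18.0% in callus at 24 h and 27.8% in callus at 3 h. The share that was lower was 21.9% in roots at 24 h, 44.6% in roots at 3 h, 21.5% in callus at 24 h and 23.4% in callus at 3 h. The median log2 fold of these 45 was -0.51 and -0.70 in roots at 24 h and 3 h and -0.20 and -0.58 in callus at 24 h and 3 h, beside medians of all features of -0.13 and -0.58 in roots at 24 h and 3 h and 0 in callus at both times. Centring of the columns changed these counts. The 13 higher and 18 lower bHLH features of roots at 3 h, AN1 included, became 16 higher and 5 lower, so no direction is given for the family there. Of the 46 bHLH features 2, or 4.35%, were higher in all 4 comparisons, near the 4.17% of all features. Besides AN1 this was Solyc09g057710, named after its values were seen, and its folds in the authors' deposited table were 2.04 in roots at 24 h, against 5.14 at 3 h, and 2.29 in callus at 24 h, against 3.997 at 3 h. The lowest bHLH features by mean log2 fold were Solyc05g007210, at 3.93-fold to 9.55-fold lower, and Solyc12g087850, at 1.37-fold to 32.3-fold lower, in the authors' deposited table.

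Of 63 MYB features, MYB-ATV had the highest fold in roots at both times and in callus at 24 h, and ranked 3 in callus at 3 h. In callus at 24 h it was barely above THM27, with a fold 1.02 times as high. In roots at 3 h the next MYB feature was Solyc02g089190 at 101-fold in the authors' deposited table, and in roots at 24 h it was Solyc07g008010 at 12.2-fold in the authors' deposited table, both named after their values were seen. Of the other 62 MYB features 10 were higher and 10 lower in roots at 24 h, 26 higher and 21 lower in roots at 3 h, 20 higher and 6 lower at 24 h of callus, and 22 higher and 13 lower at 3 h of callus. Their median log2 fold was -0.02 and 0.35 in roots at 24 h and 3 h and 0.52 and 0.08 in callus at 24 h and 3 h. With centring, the 11 higher and 10 lower MYB features of roots at 24 h, MYB-ATV included, became 15 higher and 7 lower, and the 27 higher and 21 lower of roots at 3 h became 31 higher and 9 lower. Of the 63 MYB features 3, or 4.76%, were higher in all 4 comparisons, beside 4.17% of all features, and 3, or 4.76%, were lower in all 4, beside 3.87% of all features. Both shares are near those of all features. Among the lower ones, Solyc05g051550 and Solyc04g074170 each had the same fold in callus at both times. Solyc04g074170 was named after its values were seen. The higher ones were MYB-ATV, THM27 and Solyc02g088190, the last of which was named after its values were seen. The lowest by mean log2 fold were Solyc05g051550, at 2.45-fold to 6.89-fold lower, and Solyc06g005310, at 1.31-fold to 18.2-fold lower, in the authors' deposited table.

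Of 22 WD-repeat features, AN11 ranked 3 in every comparison. Both features above it were described as WD-40 repeat family proteins. Solyc01g109120, whose folds are given above, was first in roots at both times and in callus at 24 h. Solyc04g072890, first in callus at 3 h, was in the authors' deposited table at 3.83-fold in roots at 24 h, against 10.7-fold at 3 h, and at 8.77-fold in callus at 24 h, against 16.4-fold at 3 h. These features and AN11 were the 3 WD-repeat features higher in all 4 comparisons, which is 13.6% of the family beside 4.17% of all features. That share rests on 3 features, counts the chosen AN11 among them, and was not tested. Of the other 21 WD-repeat features without AN11, 2 were higher and 5 lower in roots at 24 h, 7 higher and 10 lower in roots at 3 h, 2 higher and 7 lower at 24 h of callus, and 3 higher and 7 lower at 3 h of callus. Beside these counts, 11.7% of all features were higher and 21.9% lower in roots at 24 h, and 31.3% higher and 44.6% lower in roots at 3 h. In callus these shares were 18.0% and 21.5% at 24 h, and 27.8% and 23.4% at 3 h. With centring, the 8 higher and 10 lower WD-repeat features of roots at 3 h, AN11 included, became 8 higher and 7 lower. The lowest by mean log2 fold were Solyc09g013160, at 1.42-fold to 8.31-fold lower, and Solyc06g072830, at 1.08-fold to 9.81-fold lower, in the authors' deposited table.

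**Figure D3:**
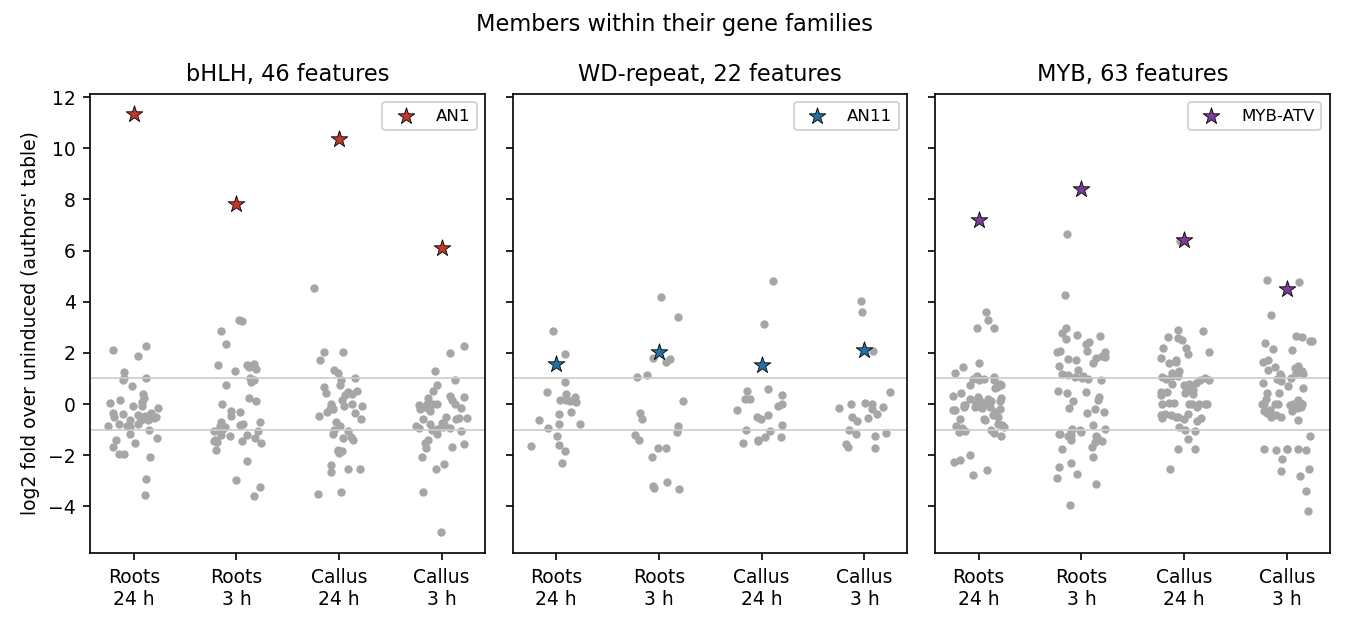
Log2 fold over uninduced tissue (vertical axis) of every bHLH, WD-repeat and MYB feature in the 4 comparisons; each grey point is 1 feature, spread sideways for visibility, stars are the named regulators, and horizontal lines mark 2-fold differences. AN1 stands apart from the other 45 bHLH features in every column, AN11 lies within the upper part of its family, and MYB-ATV is passed by other MYB features in callus at 3 h alone.

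Other regulators of the pathway were sought by identifier, and 1 of 9, THM27, was among the features. The MYB activators AN2, ANT1, AN2-like and ANT1-like, the bHLH factor JAF13, and MYB12, TRY and HY5 were not among these selected features. They were therefore not analysed here, and their folds are unknown. Of 18 listed enzyme and transport genes 15 were found, with 5 of 8 early genes among them. All 15 were higher in roots at 24 h, in roots at 3 h and in callus at 24 h, and 14 of the 15 in callus at 3 h. The exception was the chalcone synthase CHS2 (Solyc05g053550), of the first step of flavonoid synthesis, which the authors' deposited table lists at 1.67-fold in callus at 3 h. None of them was lower in any comparison. The share of all features that was higher was 11.7% in roots at 24 h and 31.3% at 3 h. In callus it was 18.0% at 24 h and 27.8% at 3 h. A gene could be found only if it had passed the authors' selection, and the list was chosen with earlier results known. These counts are therefore no test of the pathway's response.

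The 5 early genes, which make dihydroflavonols, had a median log2 fold of 9.31 in roots at 24 h, 8.26 in roots at 3 h, 6.49 in callus at 24 h and 2.22 in callus at 3 h. The 3 late genes, the flavonoid hydroxylase F3'5'H, the dihydroflavonol reductase DFR and the anthocyanidin synthase ANS, which lead on to coloured anthocyanidins, had medians of 12.41, 10.77, 14.25 and 9.11 in the same order. The 7 decoration and transport genes had medians of 12.31, 9.42, 11.09 and 9.21 in that order. The log2 fold of AN1 was above the early median in roots at 24 h and in callus at both times and below it in roots at 3 h, and it was below both later medians in all 4 comparisons. With THM27 added, these genes number 16. The AN1 ratio of 24 h over 3 h was above that of 12 of the 16 in roots and 13 of the 16 in callus. Higher ratios in callus were those of CHS2 at 53.6, F3'5'H at 45.9 and CHS1 at 30.4, and in roots those of the O-methyltransferase AOMT at 20.1, the glucosyltransferase 5GT at 19.3, F3'5'H at 18.9 and CHS1 at 12.9. The AN11 ratio was below that of all 16 in callus and of 15 of the 16 in roots, where THM27 was lower. The MYB-ATV ratio was likewise below 15 of the 16 in roots, and in callus it was above 8 and below 8.

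**Figure D4:**
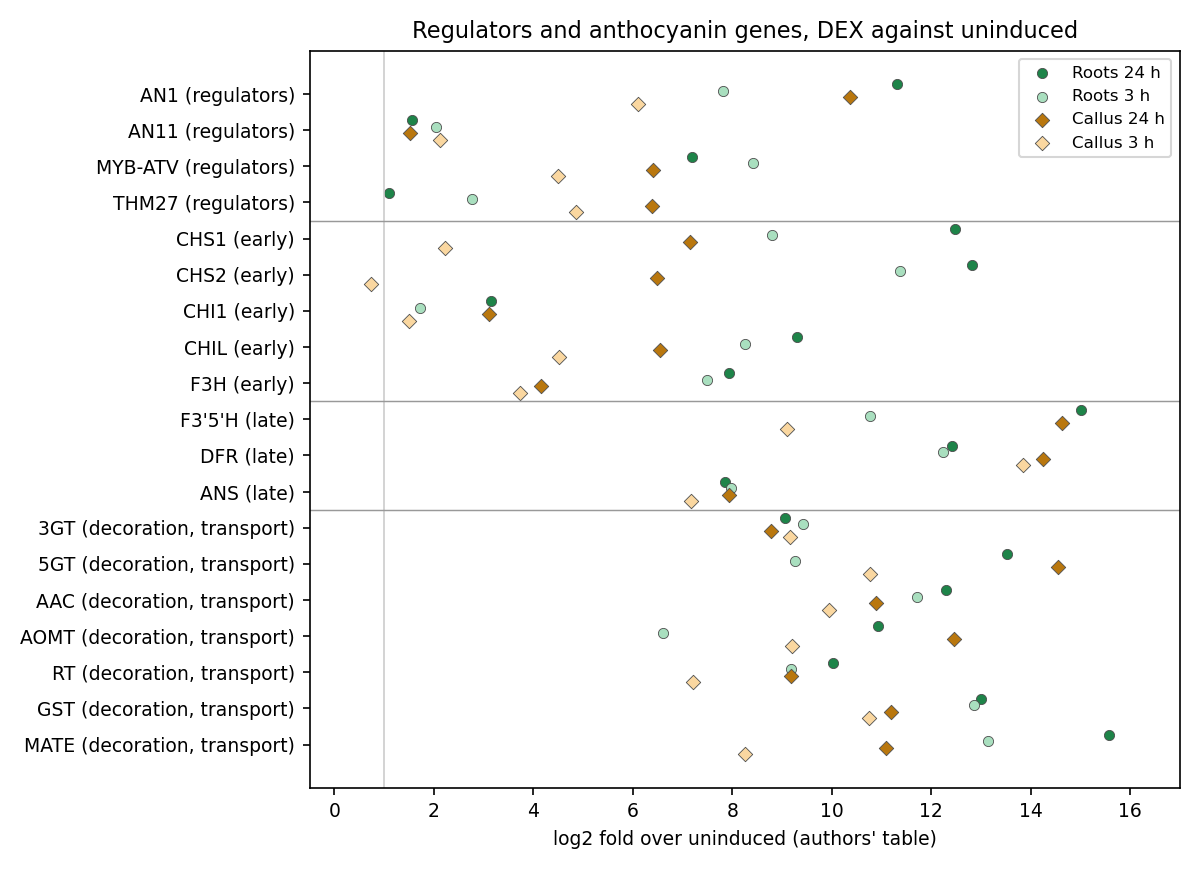
Log2 fold over uninduced tissue (horizontal axis) of the regulators and of the listed early, late, and decoration and transport genes; circles are roots and diamonds callus, dark symbols are 24 h and pale symbols 3 h, and the vertical line marks a 2-fold difference. AN11 lies between 1.52 and 2.12 in all 4 comparisons, CHS2 in callus at 3 h is the point left of the line, and the late and decoration genes lie mostly to the right of the regulators.

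The features with the most similar folds were sought by the Euclidean distance between log2 folds over the 4 comparisons. AN1 and MYB-ATV had no feature within a distance of 1, while AN11 had 72 of the other 5294. The 5 nearest to AN1 were the rhamnosyltransferase gene RT (Solyc09g059170, at a distance of 2.49), the TBC1 domain gene Solyc02g071420 (2.98), the cytochrome P450 gene Solyc04g007940 (3.32), the anthocyanin O-methyltransferase gene AOMT (Solyc09g082660, 3.95) and the anthocyanidin synthase gene ANS (Solyc08g080040, 4.37). In the authors' deposited table RT was at 1043-fold in roots at 24 h, against 581-fold at 3 h, and at 582-fold in callus at 24 h, against 149-fold at 3 h, so its folds at 3 h were above those of AN1 and its folds at 24 h below. The 5 nearest to MYB-ATV were the transgene Delila (2.10), the chalcone isomerase-like gene CHIL (Solyc05g052240, 2.13), the flavanone 3-hydroxylase gene F3H (Solyc02g083860, 2.66), the receptor-like kinase gene Solyc08g068250 (2.96) and ANS (3.19). In the authors' deposited table CHIL was at 636-fold in roots at 24 h, against 308-fold at 3 h, and at 94.0-fold in callus at 24 h, against 22.8-fold at 3 h. CHIL and MYB-ATV were thus close in roots at 3 h and in callus at both times, and apart in roots at 24 h. The 5 nearest to AN11 lay between 0.26 and 0.44 and carried other kinds of description, a receptor-like kinase (Solyc02g080070), a calmodulin-like protein (Solyc03g044900), a COL domain factor (Solyc02g084430), a pyruvate kinase (Solyc09g008840) and a fucosyltransferase (Solyc06g065240).

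Folds of green tissue markers differed between 3 h and 24 h in both tissues, where time after DEX and time of sampling cannot be told apart. Of 74 features with chlorophyll-binding, photosystem, plastocyanin or Rubisco small subunit descriptions, 41 were higher and 7 lower in roots at 24 h, 6 higher and 59 lower in roots at 3 h, 22 higher and 9 lower at 24 h of callus, and 8 higher and 27 lower at 3 h of callus. The words also matched 19 plastocyanin-like blue copper proteins, and without these 39 of 55 were higher and 0 lower in roots at 24 h, against 0 higher and 51 lower in roots at 3 h. In callus the 55 had 16 higher and 3 lower at 24 h, against 2 higher and 24 lower at 3 h. Among all features 11.7% were higher and 21.9% lower in roots at 24 h, and 31.3% higher and 44.6% lower in roots at 3 h. In callus these shares were 18.0% and 21.5% at 24 h, and 27.8% and 23.4% at 3 h. With centring, the 55 had 45 higher and 0 lower in roots at 24 h, against 0 higher and 40 lower in roots at 3 h. The folds of AN1, like this green tissue list, were higher at 24 h than at 3 h in both tissues, and those of AN11 were lower. The MYB-ATV fold was lower at 24 h than at 3 h in roots, unlike the list, and higher in callus. The part of this shift in the folds of the 3 regulators was not tested, and summed marker levels cannot be given from folds.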

How the data were processed

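Polyadenylated RNA was read as stranded paired-end libraries, per the labels' protocols. The submitters' processing notes name CASAVA 1.8.1. For the aligner, genome build, counting and normalization, the sources used here give nothing. The authors deposited the same table in a pair of formats (largest difference 0), which per the file headers gives fold changes from CLC bio software as signed folds, linear ratios and log10 ratios. No header says what the folds are relative to. Uninduced tissue of the same kind was assumed because both transgenes stood far above 1, so their folds do not check the labels. The file's name gives the selection, and 0 of 5295 features had a largest absolute fold under 2.

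The planned models over libraries could not be fitted to folds, so no test was run and depth is unknown. Log2 folds were taken from the ratios. The members and lists were chosen with earlier results of these data known. Named genes are the members, the listed pathway genes, the 5 features nearest to each member, the 2 highest and 2 lowest of each family and the transgenes, besides those marked as named after their values were seen. Short gene names are those of the lists. The RefSeq gene table matched 0 identifiers, so no positions or sequences are given. Python 3.11.15, numpy 2.4.6, pandas 2.3.3 and matplotlib 3.10.9 were used, and counting and distance steps were tested on simulated data. Alternatives were a 4-fold threshold, no threshold, centring on column medians, removal of exact or repeated folds, the other deposited columns and another measure of likeness.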

Additional observations from a re-analysis of the deposited data

How the results depend on the processing

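No paired analysis was possible because the deposited folds carry no replicates, and for the same reason no library could be left out. The signed fold and log10 columns gave the same 12 member folds as the ratio column. The number of members called higher fell from 3 to 2 at a 4-fold threshold in roots and in callus at 24 h, where AN11 was under that limit. It stayed at 3 in both tissues at 3 h, and in all 4 comparisons at no threshold. The number called lower stayed at 0. The 571 features with a fold of exactly 1 or a repeated fold include 0 of the members. Centring subtracts column medians of -0.13 and -0.58 in roots at 24 h and 3 h and 0 in callus. The root log2 folds at 24 h and 3 h then became 11.45 and 8.39 for AN1, 1.69 and 2.63 for AN11, and 7.32 and 8.997 for MYB-ATV. The log2 ratio of 24 h over 3 h in roots became 3.06 for AN1, -0.94 for AN11 and -1.67 for MYB-ATV. The log2 ratio of roots over callus at 24 h and 3 h became 1.08 and 2.28 for AN1, 0.17 and 0.51 for AN11, and 0.92 and 4.50 for MYB-ATV. Centring also left 5 lower bHLH features and 9 lower MYB features in roots at 3 h.

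The family counts depend on the threshold by its construction. No share of all features at 4-fold is given here, so the 4-fold counts show only this dependence and nothing about the families. At 4-fold the bHLH family had 3 higher and 3 lower features in roots at 24 h, 5 and 4 in roots at 3 h, 4 and 6 in callus at 24 h and 2 and 5 in callus at 3 h. The MYB family had 5 and 4, 14 and 7, 10 and 1, and 11 and 6 in the same order. The WD-repeat family had 1 and 1 in roots at 24 h and 3 and 5 in roots at 3 h, and 0 lower in callus at either time. Of the other regulators, 0 were higher by 4-fold in roots at 24 h, where THM27 was under that limit. Without exact or repeated folds 5 bHLH features were higher and 3 MYB features lower in callus at 24 h. By the largest absolute difference, 3 of the 5 features nearest to MYB-ATV were the same, as were 4 for AN1 and 5 for AN11.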
